A study of Mus musculus with 12 samples.

Results

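The nuclear genes of respiratory complexes II to V were followed in mouse hearts under pressure overload on a diet with or without branched-chain amino acids (BCAA). Members were taken by gene symbol: all names starting with Uqcr, Cox4, Cox5, Cox6, Cox7, Cox8 or Atp5, together with Sdha, Sdhb, Sdhc, Sdhd and Cyc1. This gave 45 of the 15318 genes listed in all 4 deposited tables, with 4 members in complex II, 9 in complex III, 16 in complex IV and 16 in complex V. The rule reads gene symbols alone, although it was set with earlier results of these data known. All 45 are annotated as protein-coding, and all 45 were above the level at which genes were tested in every comparison.

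Hearts came from male C57Bl/6J mice aged 12 weeks. The 4 groups were BCAA-free diet with TAC, BCAA-free diet with sham surgery, control diet with TAC and control diet with sham surgery, each with 3 libraries. TAC, transverse aortic constriction, narrows the aorta so that the left ventricle works against a raised pressure, and sham surgery is the operation without the narrowing. The BCAA-free diet held no leucine, isoleucine or valine, and the control diet held them at the level of a standard chow. Both diets held 1% propionate, so no group was free of it. The diets began 4 days before surgery and the hearts were taken 1 week after it. Nothing in the labels states that each library is a mouse of its own. The p-values here set the difference between groups against the spread among libraries of a group, which may be technical.

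Respiratory complexes II, III and IV pass electrons to oxygen in the inner mitochondrial membrane, and complex V, the ATP synthase, uses the proton gradient that complexes I, III and IV build to make ATP. Complex II is encoded wholly in the nucleus, while complexes III, IV and V combine nuclear subunits with a few made from mitochondrial DNA. Heart muscle depends on oxidative phosphorylation, and several complex IV subunits have a muscle isoform and a widely expressed isoform. The transcription factors NRF1, GABP (NRF2), YY1 and the estrogen-related receptors are known to act on promoters of many of these genes.

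Promoter windows from RefSeq (build GRCm38.p6), reaching from 250 bases before to 50 bases after the transcript start, were matched by symbol for 33 of the 45 members. The NRF1 word GCATGCGC stood in 7 of the 33 windows (21.2%), those of Atp5g2, Atp5k, Atp5l, Cox6a1, Sdhb, Uqcr11 and Uqcrc1, and in 3.05% of the 27025 genes with a window. The GABP word CCGGAAGT stood in 4 (12.1%), against 4.31% of all genes, and the ERR word TCAAGGTCA in 2 (6.06%), against 0.466%. The YY1 word AAGATGGCG stood in 2 members (6.06%), against 1.64% of all genes. Words were searched on both strands, and a match is a run of letters and not a measured binding site.

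4 windows are shown, on the strand of the gene, for the members that stood out below: Cox6a1 changed against the other members, Atp5k had the greatest rise and Uqcrh the smallest p with diet in TAC hearts, and Cox7a1 had the greatest fall with TAC on the control diet. Capitals mark the NRF1 word in Cox6a1 and Atp5k, where it lies on both strands with an overlap, and the reverse complement of the GABP word in Uqcrh. The Cox7a1 window holds none of the words searched. Cox6a1 lies at chr5:115348909-115349208, Atp5k at chr5:108434350-108434649 and Uqcrh at chr4:116075021-116075320, all on the minus strand, and Cox7a1 at chr7:30183921-30184220 on the plus strand. Of the 7 members with the NRF1 word, Atp5k, Atp5l and Atp5g2 were called higher with diet in TAC hearts and Cox6a1 lower. Sdhb, Uqcr11 and Uqcrc1 had positive changes there and did not pass. The 4 windows were picked for their changes, and whether a word goes with the direction of change was not tested.
Cox6a1: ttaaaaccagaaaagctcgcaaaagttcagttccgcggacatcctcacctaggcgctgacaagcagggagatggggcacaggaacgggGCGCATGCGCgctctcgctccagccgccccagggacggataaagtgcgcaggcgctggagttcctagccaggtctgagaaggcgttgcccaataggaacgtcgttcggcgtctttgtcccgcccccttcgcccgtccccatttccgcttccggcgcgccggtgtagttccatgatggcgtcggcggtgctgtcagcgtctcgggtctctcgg
Atp5k: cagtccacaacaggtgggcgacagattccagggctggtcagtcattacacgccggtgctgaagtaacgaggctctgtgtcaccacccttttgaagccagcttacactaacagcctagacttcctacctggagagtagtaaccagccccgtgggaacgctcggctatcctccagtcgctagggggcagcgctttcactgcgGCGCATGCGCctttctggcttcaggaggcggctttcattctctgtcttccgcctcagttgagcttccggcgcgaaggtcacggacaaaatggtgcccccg
Uqcrh: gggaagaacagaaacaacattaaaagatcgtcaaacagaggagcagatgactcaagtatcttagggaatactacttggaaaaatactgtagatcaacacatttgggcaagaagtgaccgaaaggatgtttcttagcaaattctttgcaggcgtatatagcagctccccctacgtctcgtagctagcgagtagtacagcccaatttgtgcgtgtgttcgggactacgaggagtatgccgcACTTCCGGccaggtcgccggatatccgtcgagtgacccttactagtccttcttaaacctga
Cox7a1: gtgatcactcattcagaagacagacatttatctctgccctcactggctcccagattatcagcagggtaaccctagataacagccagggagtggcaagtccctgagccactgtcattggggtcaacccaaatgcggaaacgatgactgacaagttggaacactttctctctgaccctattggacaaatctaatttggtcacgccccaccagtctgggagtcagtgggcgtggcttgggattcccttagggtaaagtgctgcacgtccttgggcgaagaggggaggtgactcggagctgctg

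Libraries held 29924401 to 46090631 reads on genes. In the library control TAC replicate 3 the liver gene Alb had 6668 reads, against 0 to 3 in the other libraries that list it. In control TAC replicate 2 the small RNA genes Rn7sk, Rmrp and Rpph1 summed to 122 CPM (counts scaled to the same library total), against 1.59 to 26.3 CPM elsewhere. Ucp1, a brown fat gene, had 249 reads in BCAA-free sham replicate 1 and 120 reads in BCAA-free TAC replicate 2, against 0 to 13 in the others. The 14 cardiomyocyte markers summed to 107755 to 125514 CPM over all libraries, and so were abundant in each. In whole hearts, fewer cells of a type and less RNA per cell cannot be told apart.

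Per kilobase of transcript, the members were among the abundant messages of the heart. Their mean level over 12 libraries had a median of 27647 normalised reads per kilobase, against 153 for the 15496 genes with a length. Atp5b, the catalytic beta subunit of complex V, was highest at 101538, and Cox4i1, the main form of complex IV subunit 4, followed at 101076. 3 members were far lower: Atp5s, a coupling factor, at 454, Cox4i2, the lung isoform of subunit 4, and Cox6b2, the testis isoform of subunit 6b, at 139. The median by complex was 15091 for complex II, 25562 for complex III, 33216 for complex IV and 29917 for complex V. The level of Atp5g1 per kilobase is uncertain, since its principal transcript models run from 596 to 4715 bases. Several other members also have more than 1 such model, among them Uqcrq with 405 to 1521 bases. The median length was used for each, so their levels per kilobase and length classes are uncertain too.

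With TAC on the control diet, relative to sham hearts, nearly all members had small negative changes. Levels within a comparison are normalised reads, that is reads divided by a size factor that the authors made for each pair of groups, so a library has slightly different values in different comparisons. The change was negative for 43 of 45 members, against 49.8% of all genes, and its median over members was -0.25 on the log2 scale, against 0.00 for all genes tested. Past the threshold, an adjusted p of 0.05 by limma over all genes, 5 members fell, against 1.94% of all genes, and 1 rose, against 3.4%. The 3 control TAC libraries lay wholly below the 3 control sham libraries for 24 members, against 13.6% of all genes. By complex the median change was -0.18 for complex II, -0.24 for complex III, -0.30 for complex IV and -0.23 for complex V.

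**Figure D1:**
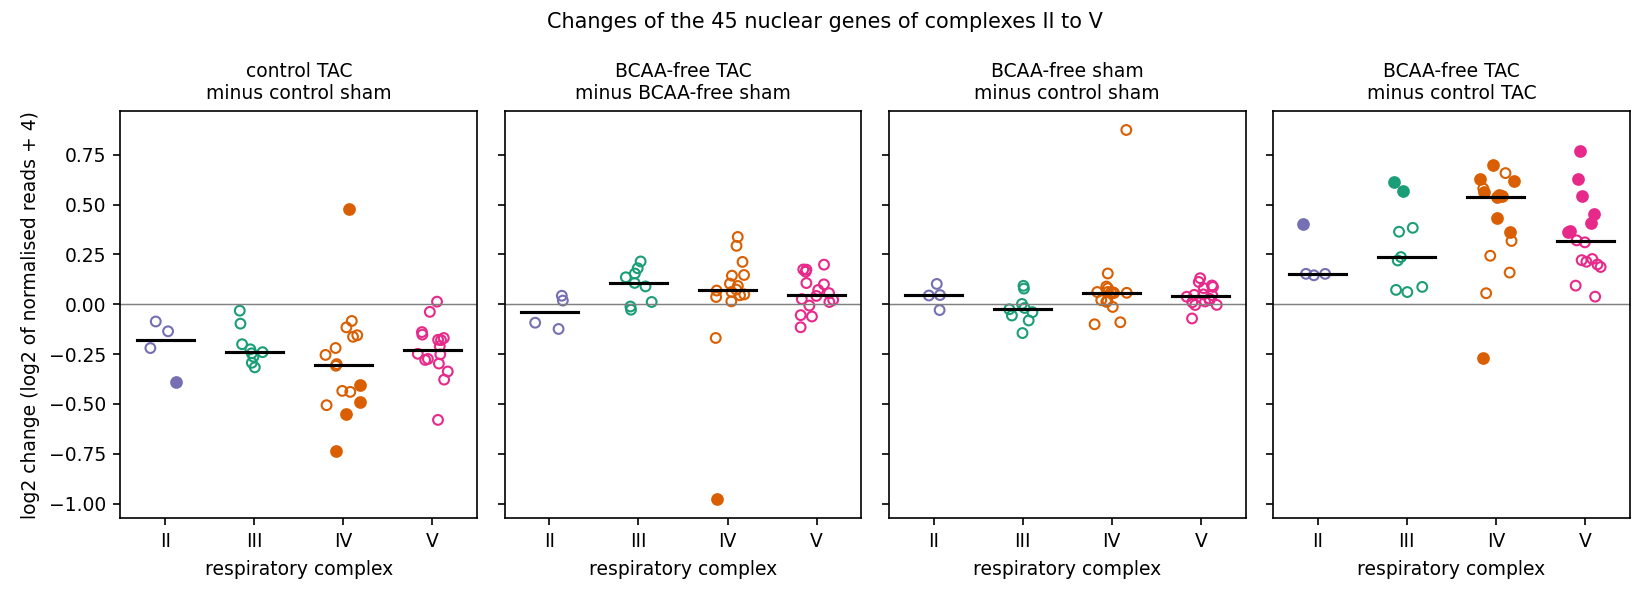
Log2 change of each of the 45 members (points) in 4 comparisons, by complex on the x axis, with the complex median as a black bar; filled points passed an adjusted p of 0.05 by limma. In the panel for control TAC minus control sham 43 of 45 points lie below 0, and in the panel for BCAA-free TAC minus control TAC 44 of 45 lie above 0.

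Cox7a1, the heart and skeletal muscle isoform of complex IV subunit 7a, changed most. It had 12927, 18782 and 18606 normalised reads in control TAC hearts, against 28869, 24617 and 29268 in control sham hearts. The groups did not overlap, and Cox7a1 fell by 0.73 on the log2 scale (SE 0.14, limma adjusted p = 0.0204), a fold of 0.601.

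3 further complex IV subunits fell on the control diet. Cox7b, a small structural subunit, had 12318, 14854 and 15708 normalised reads in control TAC hearts and 22986, 17633 and 22181 in control sham hearts, a log2 change of -0.55 (SE 0.12, limma adjusted p = 0.0311). Cox6c, another small subunit, had 17451, 18718 and 19823 in control TAC hearts and 27898, 22427 and 28712 in control sham hearts, a change of -0.49 (SE 0.10, limma adjusted p = 0.0257). Cox5a, which binds the matrix face of the complex, had 15174, 15957 and 17174 in control TAC hearts and 22897, 19247 and 21995 in control sham hearts, a change of -0.41 (SE 0.08, limma adjusted p = 0.0255). In each of the 3 genes control sham replicate 2 was the lowest sham library and still stood above all TAC libraries.

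Cox6a1, the widely expressed isoform of subunit 6a, rose. It had 5085, 4849 and 4896 normalised reads in control TAC hearts, against 3660, 3548 and 3440 in control sham hearts. The libraries of a group lay close together and the groups far apart (log2 change 0.48, SE 0.06, limma adjusted p = 0.00455). Its muscle counterpart Cox6a2 had 31471, 39014 and 40787 in control TAC hearts and 55422, 42521 and 52979 in control sham hearts, without overlap (log2 change -0.44, SE 0.13, limma adjusted p = 0.0748).

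In complex II the single call was Sdhc, a membrane anchor that helps hold the ubiquinone site. It had 11475, 12258 and 12981 normalised reads in control TAC hearts, against 16877, 14142 and 17261 in control sham hearts, a log2 change of -0.39 (SE 0.09, limma adjusted p = 0.0351). Sdha, the flavoprotein that oxidises succinate, had 46710, 53400 and 52939 in control TAC hearts and 60297, 56453 and 61231 in control sham hearts, a change of -0.22 (limma adjusted p = 0.15). Sdhb, the iron-sulfur subunit, changed by -0.09 and Sdhd, the other anchor, by -0.14 (limma adjusted p = 0.555 and 0.307), and both overlapped between the groups.

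No member of complex III or V passed the threshold on the control diet by limma or edgeR, although 7 of 9 and 9 of 16 had an unadjusted p under 0.05, against 22.7% of all genes. DESeq2 called 2 and 8 of them lower, and 20 members in all, against 9.69% of all genes. Uqcr11, a small complex III subunit, had 10952, 12376 and 13000 normalised reads in control TAC hearts, against 14980, 13178 and 15421 in control sham hearts (log2 change -0.26, limma adjusted p = 0.107). Uqcrh, the hinge protein beside cytochrome c1, changed by -0.32 and overlapped between the groups (limma adjusted p = 0.107). Atp5k, subunit e of the membrane part of complex V, had 6300, 7741 and 8162 in control TAC hearts and 12627, 8479 and 12420 in control sham hearts. Its log2 change of -0.58 was the most negative of complex V (SE 0.15, limma adjusted p = 0.0591). Atp5g2, a proton-carrying c subunit gene, changed by -0.28 (limma adjusted p = 0.0627). Atp5b had 155868, 167227 and 170736 in control TAC hearts and 205772, 185536 and 206143 in control sham hearts, without overlap (change -0.27, limma adjusted p = 0.14).

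These calls changed when a single library was left out, while the median change over members stayed between -0.32 and -0.18. Counting members past the threshold in either direction, 6 were called, against 5.34% of all genes, and leaving out a library gave 1 without control sham replicate 1 or replicate 3, 18 without control sham replicate 2, 2 without control TAC replicate 1 or replicate 2 and 6 without control TAC replicate 3. Without both control TAC replicates 2 and 3, an alternative chosen after seeing the data that assumes the lone TAC library varies like the others, 6 were called. Cox6a1 passed with any library left out, with adjusted p between 0.0113 and 0.0212. Calls over all genes, 848 with every library, also moved, to 300 and 331 without control sham replicates 1 and 3, 659 without control sham replicate 2, and 400, 399 and 634 without control TAC replicates 1, 2 and 3. The authors' deposited table of the same comparison calls 1 member higher, against 5.69% of all its genes, and 19 lower, against 4.03%.

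Markers of several cell types moved beside this comparison. The change was negative for 12 of 14 cardiomyocyte markers, with a median of -0.16 and none past the threshold by limma, and their sum was 107755 to 115429 CPM in control TAC hearts and 113463 to 115710 CPM in control sham hearts. All 10 macrophage markers had positive changes, with a median of 0.42 and 1 called higher, and summed to 305 to 506 CPM in control TAC hearts and 286 to 297 CPM in control sham hearts. Of 10 fibroblast markers 4 rose and 2 fell, with a median of 0.27. The 10 endothelial markers had a median of -0.20, with 1 called lower. The 10 liver markers had a median of 1.86 and none passed; they summed to 281 CPM in control TAC replicate 3 and to 4.33 to 7.44 CPM in the other libraries. Without that library 6 members were called, as with it. The part of the other cell types in the result was not tested.

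On the BCAA-free diet few members changed with TAC. The median change was 0.06 over members, and 35 of 45 changes were positive, against 49.4% of all genes; under quantile normalisation the median was 0.02, and 26 were positive. None rose past the threshold, against 2.94% of all genes, and 1 fell, against 1.37%; 4 members had an unadjusted p under 0.05, against 21.4%. edgeR likewise called 1 lower, and DESeq2 called 2 higher and 1 lower, against 7.45% of all genes in either direction. By complex the median was -0.04 for complex II, 0.11 for complex III, 0.07 for complex IV and 0.05 for complex V. All 10 macrophage markers and 6 of 10 fibroblast markers rose in this comparison, with medians of 0.88 and 0.62, and the macrophage markers summed to 376 to 483 CPM in BCAA-free TAC hearts and 212 to 232 CPM in BCAA-free sham hearts. The 14 cardiomyocyte markers had a median of 0.09, with none past the threshold by limma.

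The member that fell was Cox6b2, the testis isoform of subunit 6b, which is the least abundant member here. It had 67.5, 63.7 and 57.0 normalised reads in BCAA-free TAC hearts, against 154, 118 and 113 in BCAA-free sham hearts, a log2 change of -0.98 (SE 0.18, limma adjusted p = 0.0177). The BCAA-free sham libraries were the high ones, since control sham hearts had 41.3 to 82.3 in the table they share with them. The call was lost without any BCAA-free sham library, with adjusted p up to 0.0997. Cox6a1 was again higher, with 4286, 4441 and 4368 in BCAA-free TAC hearts, against 3884, 3224 and 3605 in BCAA-free sham hearts, without overlap (log2 change 0.29, SE 0.08, limma adjusted p = 0.0531). DESeq2 called Cox6a1 higher (adjusted p = 0.0221). Cox8a, the widely expressed isoform of subunit 8, had 5753, 6315 and 5616 in BCAA-free TAC hearts and 5372, 3999 and 4701 in BCAA-free sham hearts (change 0.34, limma adjusted p = 0.0809). Cox7a1 changed by -0.17 and overlapped between the groups (limma adjusted p = 0.508).

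The diet alone was set apart in sham hearts. The median change of the members was 0.04, and 32 of 45 changes were positive, against 50.5% of all genes. No member passed the threshold by limma or edgeR, while 438 genes did (2.81%); DESeq2 called 1 member, against 5.34% of all genes, and 1 member had an unadjusted p under 0.05, against 18.3%. That member was Cox6b2, with 138, 106 and 101 normalised reads in BCAA-free sham hearts, against 63.8, 41.3 and 82.3 in control sham hearts (log2 change 0.87, SE 0.24, limma adjusted p = 0.0785). Cox7a1 had 29985, 22167 and 27949 in BCAA-free sham hearts and 27539, 23552 and 27912 in control sham hearts, and Uqcrh had 17000, 13106 and 15884 in BCAA-free sham hearts and 15668, 12154 and 15770 in control sham hearts. The groups overlapped for both genes, and replicate 2 was the lowest library on either diet.

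In TAC hearts nearly all members had positive changes with the BCAA-free diet relative to the control diet. The change was positive for 44 of 45 members, against 50.7% of all genes, with a median of 0.36 against 0.00 for all genes. Past the threshold 19 members were higher, against 1.27% of all genes, and 1 was lower, against 2.11%. The BCAA-free TAC libraries lay wholly above the control TAC libraries for 34 members, against 12.6% of all genes. The complexes ran in the order IV (median 0.54), V (0.32), III (0.24) and II (0.15), with 9 of 16, 7 of 16, 2 of 9 and 1 of 4 members called higher. Under quantile normalisation the medians were 0.42, 0.19, 0.09 and 0.04 in that order, and 13 members were called higher. This comparison shares its control TAC libraries with the comparison of TAC and sham on the control diet, so the 2 are not independent.

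**Figure D2:**
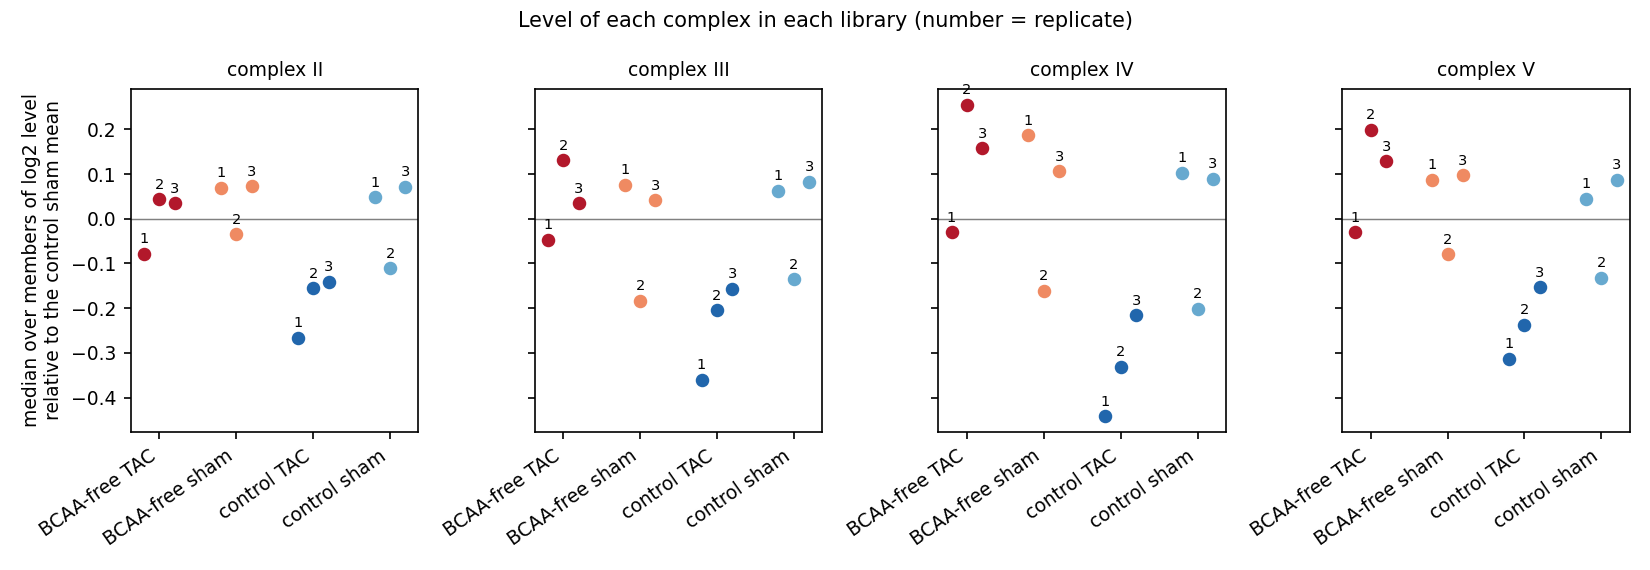
Median over the members of a complex of the log2 level of each library, relative to the mean of the control sham libraries; each point is a library, numbered by replicate. In complex IV the control TAC libraries sit between -0.44 and -0.22 and the BCAA-free TAC libraries between -0.03 and 0.26.

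Set library by library against the control sham mean, the median over all members was -0.04, 0.22 and 0.12 in BCAA-free TAC replicates 1, 2 and 3, and -0.33, -0.23 and -0.16 in control TAC replicates 1, 2 and 3. It was 0.13, -0.13 and 0.08 in the BCAA-free sham libraries and 0.06, -0.14 and 0.09 in the control sham libraries. The 3 control TAC libraries were the lowest of the 12, and replicate 2 was the lowest of each sham group, close above control TAC replicate 3.

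The complex IV median was also set against those of the other complexes within each library. The complex IV median minus the complex II median was 0.05, 0.21 and 0.12 in BCAA-free TAC hearts and -0.17, -0.18 and -0.08 in control TAC hearts, without overlap. Against complex III the difference was 0.02, 0.12 and 0.12 in BCAA-free TAC hearts and -0.08, -0.13 and -0.06 in control TAC hearts. Against complex V it was -0.00, 0.06 and 0.03 in BCAA-free TAC hearts and -0.13, -0.09 and -0.06 in control TAC hearts. Sham libraries of 1 group also spread widely: complex IV minus complex II was 0.12, -0.13 and 0.03 in BCAA-free sham hearts and 0.05, -0.09 and 0.02 in control sham hearts, and complex IV minus complex V was 0.10, -0.08 and 0.01 in BCAA-free sham hearts and 0.06, -0.07 and 0.00 in control sham hearts. These are descriptions over genes that share libraries, with no test.

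In complex II, Sdhc had 17123, 18845 and 18358 normalised reads in BCAA-free TAC hearts, against 12761, 13761 and 14540 in control TAC hearts, a log2 change of 0.40 (SE 0.08, limma adjusted p = 0.0255). The groups were well apart. The other 3 members changed by 0.15 each, and of them only Sdhd did not overlap, with 13369, 13552 and 14032 in BCAA-free TAC hearts and 12223, 12160 and 12443 in control TAC hearts (limma adjusted p = 0.218).

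In complex III 2 of 9 members were called, Uqcrh and Uqcr10. Uqcrh had 19348, 22108 and 20940 normalised reads in BCAA-free TAC hearts, against 12769, 13575 and 14419 in control TAC hearts, a log2 change of 0.61 (SE 0.08, limma adjusted p = 0.00585). Uqcr10, another small subunit, had 12952, 14997 and 14580 in BCAA-free TAC hearts and 8705, 10052 and 9884 in control TAC hearts (change 0.57, SE 0.09, limma adjusted p = 0.01). Neither gene overlapped between the groups. The other small subunits Uqcr11, Uqcrq and Uqcrb changed by 0.38, 0.36 and 0.24 and did not pass (limma adjusted p = 0.0696, 0.104 and 0.141). Cyc1, cytochrome c1, had 29755, 33210 and 31297 in BCAA-free TAC hearts and 28292, 30445 and 31591 in control TAC hearts, with overlap (change 0.06, limma adjusted p = 0.719). The core proteins Uqcrc1 and Uqcrc2 changed by 0.07 and 0.09, also with overlap, and Uqcrfs1, the Rieske iron-sulfur protein, by 0.22 without overlap (limma adjusted p = 0.172).

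In complex IV the smallest p was that of Cox8a, with 6000, 6659 and 5901 normalised reads in BCAA-free TAC hearts, against 3899, 4153 and 4520 in control TAC hearts (log2 change 0.56, SE 0.08, limma adjusted p = 0.00789). Cox6a2 had 54900, 78055 and 70203 in BCAA-free TAC hearts, against 34997, 43797 and 45685 in control TAC hearts, the greatest change of complex IV at 0.70 (SE 0.15, limma adjusted p = 0.0391). The spread of Cox6a2 among the BCAA-free TAC libraries was wide, and the lowest of them still stood above the highest control TAC library. Cox7b, Cox6c, Cox7c, Cox6b1 and Cox7a2, which are small or peripheral subunits, rose by 0.54 to 0.63, Cox5a rose by 0.43 and Cox7a2l by 0.36. The muscle isoforms Cox7a1 and Cox8b changed by 0.58 and 0.66 and did not pass (limma adjusted p = 0.0996 and 0.0609). Cox4i1 changed by 0.24 and Cox5b, which binds zinc, by 0.32 (limma adjusted p = 0.223 and 0.158).

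Cox6a1 went the other way. It had 4470, 4683 and 4590 normalised reads in BCAA-free TAC hearts, against 5655, 5444 and 5484 in control TAC hearts, and fell by 0.27 on the log2 scale (SE 0.06, limma adjusted p = 0.0478). The groups did not overlap, but the call was close to the threshold: edgeR gave an adjusted p of 0.057, and leaving out any TAC library gave 0.061 to 0.163.

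In complex V, Atp5k had 12011, 15832 and 14572 normalised reads in BCAA-free TAC hearts, against 7006, 8690 and 9142 in control TAC hearts. The groups were far apart, and its log2 change of 0.77 was the greatest of all members (SE 0.13, limma adjusted p = 0.0142). Atp5j2 and Atp5l, subunits f and g beside it in the membrane part, rose by 0.63 and 0.45. Atp5e, Atp5d and Atp5c1, subunits epsilon, delta and gamma of the central stalk, rose by 0.54, 0.37 and 0.37, and Atp5g2 by 0.41. The catalytic head did not pass: Atp5b had 198934, 235681 and 206969 in BCAA-free TAC hearts and 173331, 187733 and 191239 in control TAC hearts, without overlap (change 0.21, limma adjusted p = 0.374). Atp5a1, subunit alpha, changed by 0.19 with overlap. In the outer stalk Atp5h changed by 0.32, Atp5o by 0.31, Atp5j by 0.23 and Atp5f1 by 0.20, each without overlap and none past the threshold.

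**Figure D3:**
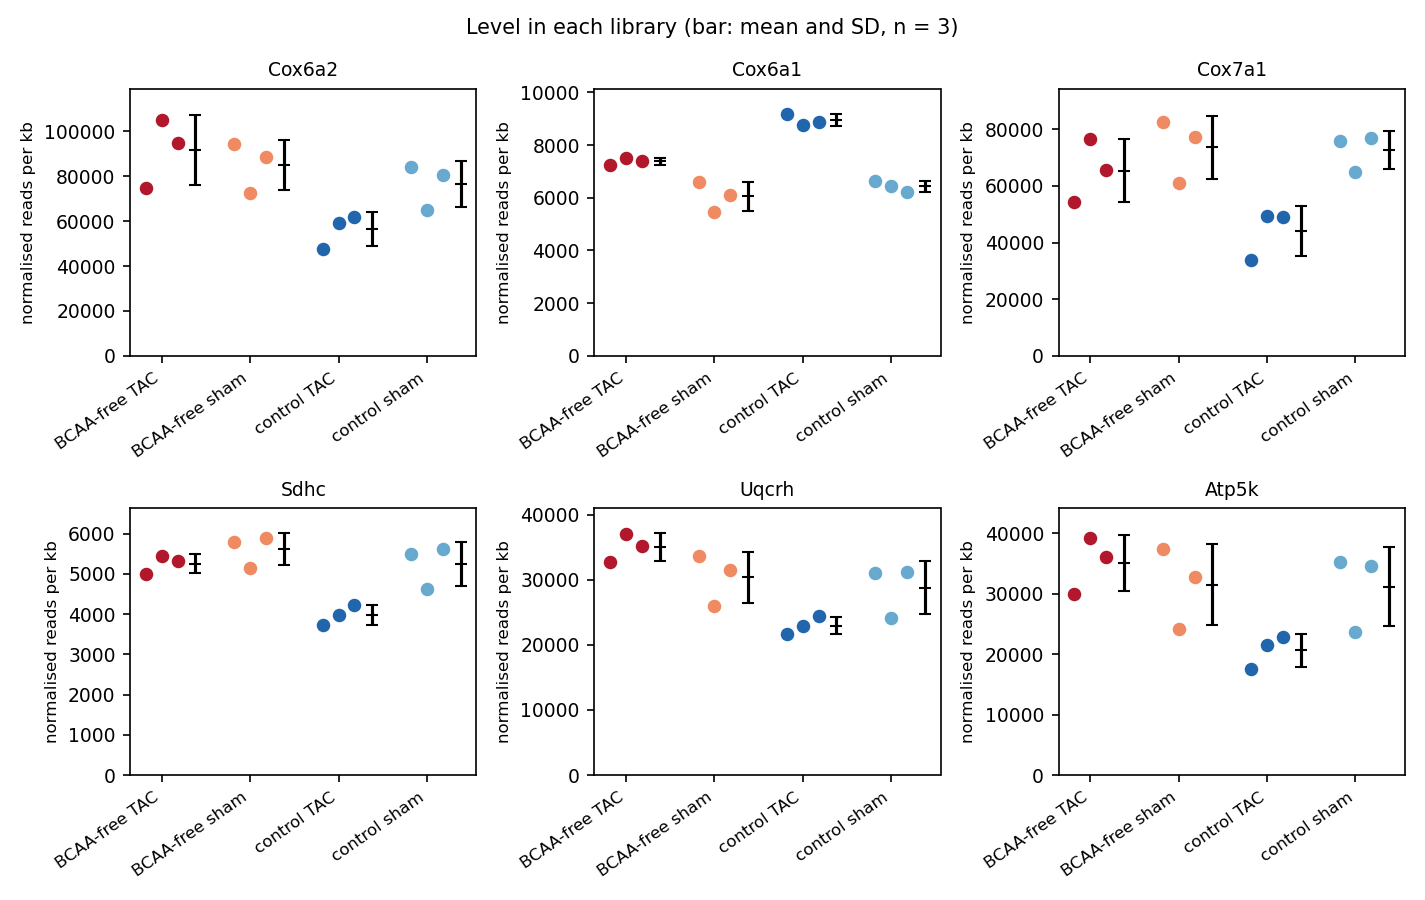
Normalised reads per kilobase in each library (points) with the mean and SD of each group (n = 3), for 6 members named in the text, with y axes from 0. Cox6a1 is highest in the control TAC libraries. The other 5 genes are lowest there, except that for Uqcrh control sham replicate 2 (24069) lies below control TAC replicate 3 (24352).

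The count of 20 members called with diet in TAC hearts, against 3.38% of all genes, also changed when a single library was left out. It was 8 without control TAC replicate 1, 2 without control TAC replicate 2, 13 without control TAC replicate 3, 25 without BCAA-free TAC replicate 1, 2 without BCAA-free TAC replicate 2 and 3 without BCAA-free TAC replicate 3. Calls over all genes moved as well: there were 548 with every library, 1044, 178 and 287 when BCAA-free TAC replicate 1, 2 or 3 was left out, and 333, 138 and 242 when control TAC replicate 1, 2 or 3 was. With a single library left out, 43 or 44 of 45 member changes were positive, and their median stayed between 0.28 and 0.41. Uqcrh was the member that passed with any of the 6 libraries left out. Without both control TAC replicates 2 and 3 no member passed by limma, with 29 at an unadjusted p under 0.05, and no gene at all passed. DESeq2 called 26 higher and 1 lower, against 7.38% of all genes in either direction, and the authors' deposited table has the same counts, against 3.45% of all its genes higher and 3.87% lower.

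Marker genes moved beside this result. All 10 liver markers had negative changes, with a median of -2.03 and none past the threshold by limma, and they summed to 4.97 to 7.44 CPM in BCAA-free TAC hearts and, in rising order, to 4.34, 5.87 and 281 CPM in control TAC hearts. The median was -0.05 for 10 fibroblast markers, 0.05 for 10 macrophage markers and -0.10 for 10 endothelial markers. The cardiomyocyte markers were higher in BCAA-free TAC than in control TAC hearts for 12 of 14 genes, with a median change of 0.25 and none past the threshold; their sum was 114555 to 125514 CPM in BCAA-free TAC hearts and 107755 to 115429 CPM in control TAC hearts. Adipocyte markers had positive changes for 8 of 8 tested of 10 listed, with a median of 1.14 and none past the threshold by limma. They summed to 55.9 to 142 CPM in BCAA-free TAC hearts and 38.9 to 81.1 CPM in control TAC hearts. In sham hearts the same adipocyte genes had a median diet change of 1.16, where the members' median was 0.04, and 4 were called higher, against 2.81% of all genes called in either direction. Skeletal muscle markers had positive changes for 6 of 6 tested of 10 listed, with a median of 0.83. Of them 1 was called higher, against 1.27% of all genes. They summed to 2328 to 2720 CPM in BCAA-free TAC hearts and 2147 to 2661 CPM in control TAC hearts. This list includes Ckm, which the heart expresses, while Myh1, Myh2, Myh4 and Actn3 were below the level tested. Without BCAA-free TAC replicate 2, the library with Ucp1 reads, 43 of 45 changes stayed positive with a median of 0.31. Only 2 members were then called, against 20 with every library, while calls over all genes went from 548 to 178. The part of these cell types in the result was not tested.

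Transcript length moved with it too. Over the 45 members the rank correlation of the change with transcript length was -0.61, over 9 members of complex III -0.80, over 16 of complex IV -0.26 and over 16 of complex V -0.78, all from the same 6 libraries; over 16111 other genes it was -0.24. The 14 members of up to 600 bases had a median change of 0.54, against 0.16 for 662 other genes of that length and 0.42 for the 34 of these with at least 5000 normalised reads. For over 600 and up to 1000 bases the medians were 0.34 for 14 members and 0.19 for 94 other genes with at least 5000 normalised reads. For over 1000 and up to 2000 bases they were 0.20 for 13 members and 0.11 for 213 such genes. The members were not held to that level, and the other genes were not matched to them in abundance. With TAC on the control diet the correlation was 0.49 over members and -0.01 over other genes. There the members of up to 600 bases had a median of -0.30, against -0.07 for 613 other genes of that length. It was -0.23 for the 34 of these with at least 5000 normalised reads. For over 600 and up to 1000 bases the medians were -0.25 for members and -0.04 for other genes at that level. For over 1000 and up to 2000 bases they were -0.16 and -0.04. The median transcript length was 632 bases in complex IV and 2066 bases in complex II. The part of transcript length in the order of the complexes was not tested. Many short members also have processed pseudogenes in the mouse genome, and how reads with several matches were counted is not given in the sources used here.

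**Figure D4:**
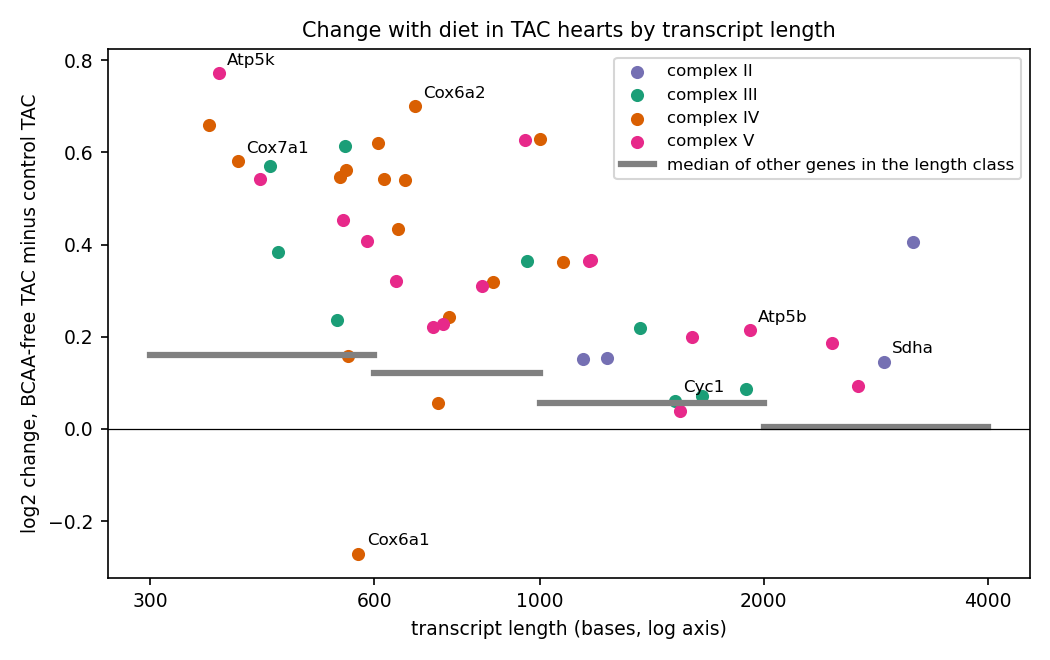
Log2 change with diet in TAC hearts (y) against transcript length in bases (x, log axis) for the 45 members, coloured by complex; grey bars give the median of the other genes in 4 length classes, drawn from 300 to 4000 bases. Short members lie highest and most lie above the grey bar of their class, with Cox6a1 below 0.

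Isoform pairs of complex IV were compared as ratios. Per kilobase, the ratio of Cox6a2 to Cox6a1 was 5.20, 6.76 and 7.0 in control TAC hearts, against 12.7, 10.1 and 12.9 in control sham hearts, a log2 difference of -0.92 without overlap. In BCAA-free TAC hearts it was 10.3, 14.0 and 12.8, against 14.3, 13.3 and 14.5 in BCAA-free sham hearts, with overlap (difference -0.19). The diet groups did not overlap in either surgery: BCAA-free TAC hearts lay above control TAC hearts (difference 0.97), and BCAA-free sham hearts above control sham hearts (difference 0.24). A library's scaling cancels in such a ratio, and no test was applied.

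The other muscle isoforms were lower relative to their counterparts in TAC than in sham hearts on either diet. The Cox7a1 to Cox7a2 ratio was 3.35, 3.99 and 3.60 in BCAA-free TAC hearts, against 4.78, 4.44 and 4.38 in BCAA-free sham hearts, and 3.08, 3.86 and 3.72 in control TAC hearts, against 4.64, 5.10 and 4.61 in control sham hearts. TAC and sham did not overlap on either diet, while the TAC hearts of the 2 diets did (difference 0.04). The Cox8b to Cox8a ratio was 4.72, 6.21 and 6.23 in BCAA-free TAC hearts, against 6.76, 6.45 and 6.98 in BCAA-free sham hearts, and 4.63, 5.92 and 5.45 in control TAC hearts, against 6.21, 6.86 and 7.16 in control sham hearts. Here too TAC lay below sham on both diets and the diets overlapped in TAC hearts. The diets overlapped in sham hearts as well for both ratios.

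**Figure D5:**
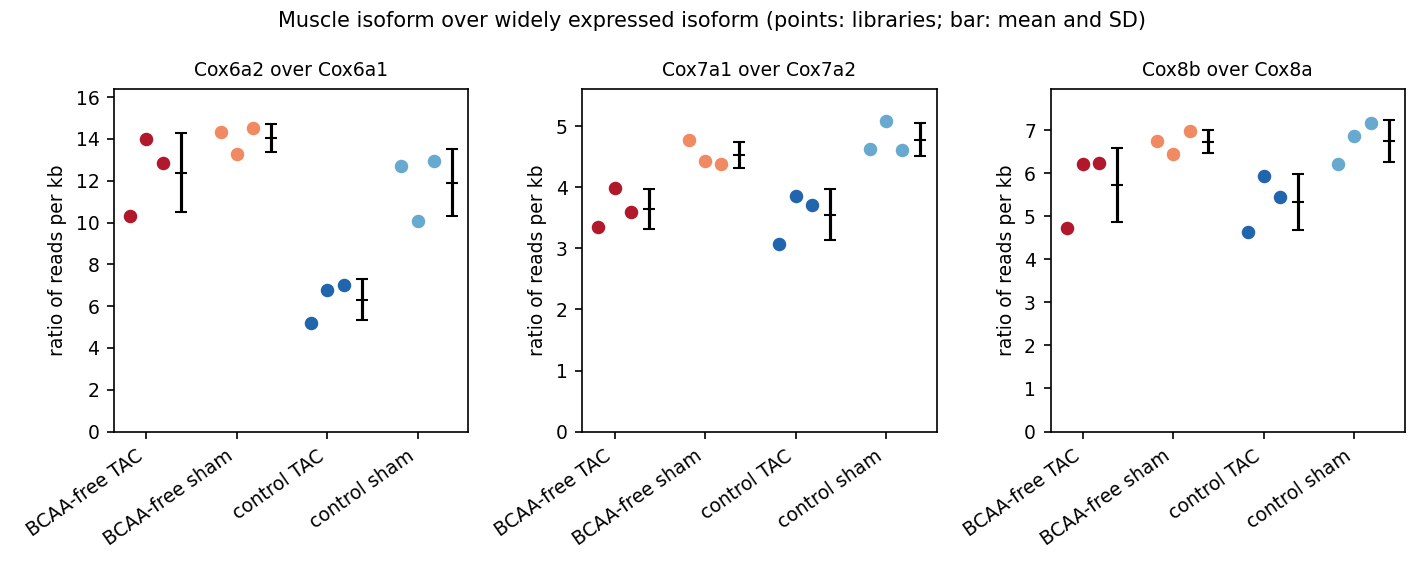
Ratio of the muscle isoform to the widely expressed isoform, in reads per kilobase, for 3 complex IV subunits; points are libraries, black marks the mean and SD (n = 3), and y axes start at 0. The Cox6a2 to Cox6a1 ratio is 5.20 to 7.0 in control TAC hearts and at least 10.1 in each other library.

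The 3 genes for the same c subunit of complex V were also compared as ratios. Atp5g1 over Atp5g2 was 1.91, 1.75 and 1.77 in BCAA-free TAC hearts, against 1.60, 1.63 and 1.56 in BCAA-free sham hearts, and 2.05, 2.31 and 2.40 in control TAC hearts, against 1.66, 1.94 and 1.92 in control sham hearts. TAC lay above sham on both diets, and BCAA-free TAC hearts lay below control TAC hearts (difference -0.31), each without overlap. The sizes of these ratios carry the uncertain length of Atp5g1, and the differences between groups do not. In sham hearts too the ratio was lower on the BCAA-free than on the control diet without overlap (difference -0.20). Atp5g1 over Atp5g3 was likewise higher in TAC than in sham hearts on both diets, without overlap. Between the diets it overlapped in TAC hearts (difference -0.13) and was lower in BCAA-free sham hearts (difference -0.07). Atp5g2 over Atp5g3 overlapped between TAC and sham on both diets, and between diets in sham hearts. In TAC hearts it was higher with the BCAA-free diet (difference 0.19). The ratio of the low Cox6b2 to the abundant Cox6b1 was 0.00690, 0.00708 and 0.00547 in BCAA-free sham hearts and 0.00334, 0.00280 and 0.00437 in control sham hearts, higher with the diet. In TAC hearts it was lower with the diet, at 0.00315, 0.00257 and 0.00252 in BCAA-free TAC hearts and 0.00412, 0.00320 and 0.00336 in control TAC hearts. Neither pair of groups overlapped, and BCAA-free TAC hearts also lay below BCAA-free sham hearts (difference -1.24). The ratio of Cox4i2 to Cox4i1 was 0.00380 to 0.00429 in BCAA-free TAC hearts and 0.00451 to 0.00473 in control TAC hearts.

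Whether TAC acted differently on the 2 diets was tested directly, as the difference of the 2 TAC changes. No member passed by limma, edgeR or DESeq2, and 7 of 15524 genes did by limma (0.0451%). At an unadjusted p under 0.05 there were 25 members, against 10.1% of all genes, and 42 of 45 differences were positive, against 49.8%, with a median of 0.29. The smallest p was that of Cox5a, with a difference of 0.44 (SE 0.12, limma adjusted p = 0.237), followed by Uqcrh with 0.53 (SE 0.15, limma adjusted p = 0.276). The greatest difference was that of Atp5k, 0.75 (SE 0.24, limma adjusted p = 0.286). The fall on the control diet and the lack of calls on the BCAA-free diet are thus not shown to differ for any single gene.

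Averaged over the diets, TAC raised Cox6a1, which is 2.22% of the members, against 9.67% of all genes called higher. It lowered Cox7a1, Sdhc and Cox6b2, which are 6.67% of the members, against 7.29% of all genes called lower. Neither share of members was above that of all genes. By limma within a diet, Cox6a1, Cox7a1 and Sdhc passed on the control diet alone, and Cox6b2 on the BCAA-free diet alone. The authors' log2 changes on the control and BCAA-free diets were -0.72 and -0.17 for Cox7a1, and -0.40 and -0.09 for Sdhc. They were -0.32 and -1.04 for Cox6b2, and 0.48 and 0.29 for Cox6a1. On average, Cox6a1 changed by 0.39 (SE 0.05, limma adjusted p = 0.000332), Cox7a1 by -0.45 (SE 0.11, limma adjusted p = 0.0132), Sdhc by -0.24 (SE 0.06, limma adjusted p = 0.0134) and Cox6b2 by -0.62 (SE 0.16, limma adjusted p = 0.0169). All 4 passed with any of the 12 libraries left out, and 7 members were called when replicate 2 of either the BCAA-free TAC, the BCAA-free sham or the control sham group was left out. Without both control TAC replicates 2 and 3 Cox6b2 did not pass (limma adjusted p = 0.0807).

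Averaged over the surgeries, the BCAA-free diet raised 17 members, against 5.19% of all genes, and lowered Cox6a1, against 6.57%. The smallest p was that of Uqcrh, with a change of 0.35 (SE 0.08, limma adjusted p = 0.0114), and Cox6a2 changed by 0.43 (SE 0.10, limma adjusted p = 0.0173). Uqcrh, Sdhc, Atp5e and Atp5l passed with any of the 12 libraries left out. In all 18 members were called, and the count was 6 without BCAA-free sham replicate 1, 7 without BCAA-free sham replicate 3, 7 without BCAA-free TAC replicate 2, 9 without control sham replicate 2 and 12 to 26 without any other library. The median diet change was 0.36 in TAC hearts and 0.04 in sham hearts.

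Genes that work with these complexes were taken from lists by role. The 6 mitochondrially encoded subunits of complexes III, IV and V had a median change of -0.06 with diet in TAC hearts, with 1 of 6 positive and none past the threshold by limma (mt-Co3 had an unadjusted p of 0.0183). Polyadenylated RNA was selected, so mitochondrial messages are read through their short tails. With TAC on the control diet their median was -0.12, and mt-Co3, subunit 3 of complex IV, rose by 0.38 (limma adjusted p = 0.0411). The 6 genes summed to 104173 to 110866 CPM in control TAC hearts and 119248 to 124134 CPM in control sham hearts. On the BCAA-free diet they summed to 99051 to 107486 CPM in TAC hearts and 111161 to 117272 CPM in sham hearts. With TAC averaged over the diets 1 of the 6 fell by limma, against 7.29% of all genes. Of 33 assembly factors tested, 2 rose with diet in TAC hearts, against 1.27% of all genes, and the median over the 33 was 0.06. The 2 were Cox17, a copper chaperone for complex IV, by 0.68 (limma adjusted p = 0.00478) and Uqcc2, an assembly factor of complex III, by 0.48 (limma adjusted p = 0.0107). None of 12 regulators of nuclear respiratory genes passed with diet in TAC hearts or with TAC on the control diet by limma. The coactivator gene Ppargc1a changed by -0.44 with diet in TAC hearts, where 44 of 45 members had a positive change (limma adjusted p = 0.114). Esrrg, which encodes an estrogen-related receptor, fell by 0.42 with TAC on the BCAA-free diet (limma adjusted p = 0.0125). With TAC averaged over the diets 3 of the 12 regulators fell, against 7.29% of all genes: Esrrg by 0.28, Gabpa, a subunit of GABP, by 0.21 and Esrra, another estrogen-related receptor, by 0.14 (limma adjusted p = 0.0172, 0.014 and 0.0451).

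The 37 nuclear subunit genes of complex I followed the same direction. With diet in TAC hearts 36 of 37 changes were positive, against 50.7% of all genes, with a median of 0.24, and 7 were higher past the threshold, against 1.27%. Among them were Ndufc1 with 0.55, Ndufa2 with 0.55 and Ndufa4 with 0.42, the last named for complex I and since assigned to complex IV. With TAC on the control diet 34 of 37 changes were negative, against 49.8%, with a median of -0.16, and Ndufa1, Ndufa3 and Ndufb9 fell, by 0.41, 0.52 and 0.42, against 1.94% of all genes called lower. With diet in TAC hearts the complex I median was thus close to that of complex III and below those of complexes IV and V.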

How the data were processed

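RNA-seq of 12 heart libraries in 4 groups of 3 was analysed. Polyadenylated RNA was selected after Trizol extraction, per the labels' protocols. The submitters' processing notes name Trimmomatic 0.36, STAR 2.5.2b, Subread 1.5.2, DESeq2 and build GRCm38 (mm10). The sources used here do not give their roles and settings or whether strand was used, so members that share sequence with pseudogenes or overlap other genes are uncertain. The authors deposited 4 tables, each a pair of groups, with a size-factor-normalised signal per library, that is reads divided by a factor made for that table. The deposited log2 fold changes, p-values and adjusted p-values are the authors' own, per the file headers.

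Changes were tested with limma 3.58.1, with a trend over intensity, on log2(signal + 4) within a table, leaving out genes whose mean was under 10, with Benjamini-Hochberg adjustment over all genes and a threshold of 0.05. Fold changes on this scale understate those of low genes. The difference of the TAC responses and the averages used columns of a pair of tables. The design had foreseen counts or normalised values, and the files held normalised values. Whole reads were recovered from the columns (tolerance 0.001) for edgeR 4.0.16 and DESeq2 1.42.0 as alternatives, on the 15525 genes with reads in all 12 libraries, and for levels on a scale common to the 12 libraries. Transcript lengths are the median over principal transcripts of GENCODE M21, in which 16480 of 16514 gene identifiers were found. Depth was 29924401 to 46090631 reads per library. Scripts were tested on simulated data.

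Members and gene lists were chosen with earlier results of these data known. Named in the text are the members past the threshold, the 2 of smallest p per complex, core subunits and isoform pairs. Alternatives were a pseudocount of 1, no filter, a filter at a mean of 50, quantile normalisation, edgeR, DESeq2, a replicate block and each library left out.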

Additional observations from a re-analysis of the deposited data

How the results depend on the processing

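Counts of members past the threshold, in either direction, stayed within 1.5 times of the reported ones under a pseudocount of 1, no filter on low values, a filter at a mean of 50 and edgeR in all 7 comparisons. DESeq2 gave 20 with TAC on the control diet, 3 with TAC on the BCAA-free diet, 1 with diet in sham hearts and 9 with TAC averaged over diets, where limma gave 6, 1, 0 and 4. Quantile normalisation gave 8 with TAC averaged over diets and lowered the median diet change in TAC hearts to 0.04 in complex II, 0.09 in complex III, 0.42 in complex IV and 0.19 in complex V. Without both control TAC replicates 2 and 3, chosen after seeing the data, diet in TAC hearts gave 0, against 20 with all libraries, with 29 members at an unadjusted p under 0.05, in an arm of 1 library assumed to vary like the others. The causes were not tested. Leaving out each library in turn gave 1 to 18 with TAC on the control diet, 0 to 2 with TAC on the BCAA-free diet, 0 to 1 with diet in sham hearts, 2 to 25 with diet in TAC hearts, 0 to 0 for the difference of the TAC responses, 4 to 7 with TAC averaged over diets and 6 to 26 with diet averaged over surgery. Of the results for single members under all alternatives, 196 lost the threshold, 54 gained it and none changed direction while called. Same-numbered libraries had correlations of -0.09 to 0.22, and not every library correlated best with its own number. The main fit did not pair samples by number, and whether the numbers pair them is not known. With a replicate block the member counts were 7 with TAC on the control diet and 27 with diet in TAC hearts. They were 1 with TAC on the BCAA-free diet, 0 with diet in sham hearts and 0 for the difference. The averages gave 4 for TAC and 18 for diet. Calls over all genes with the block were 1275 with diet in TAC hearts, against 548 without it, and 713 with diet in sham hearts, against 438. They were 805 with TAC on the control diet, against 848, and 525 with TAC on the BCAA-free diet, against 688. The limit that depth sets was not tested apart from the spread among libraries; the member with the fewest reads, Cox6b2, had 41.3 to 154 normalised reads.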
